A study of Mus musculus with 6 samples.

Results

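This account covers 10 genes that direct the making of skeletal muscle or the fusion of its precursor cells, read in bulk RNA sequencing of mouse dorsal skin. They are the progenitor factors Pax3 and Pax7, the muscle basic helix-loop-helix factors Myf5, Myod1, Myog and Myf6, their partner Mef2c, the fusion genes Mymk and Mymx, and Mustn1. They were picked by gene name from 55291 genes in the deposited tables, with their levels in tight skin (TSK) against wild-type (WT) libraries and relative to Ttn already in view, so those differences are given as a description and support nothing by themselves. All 10 were in the tables and 9 of them passed the filter on low counts, which kept 19971 genes. Mymx did not.

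Skin was shaved and removed from the back of TSK mice and their WT littermates, 3 of each, with 1 library per mouse. All were of the C57BL/6 strain, and the labels put them at 6 to 8 weeks of age. The TSK mutation, kept by backcrossing to C57BL/6, is a tandem duplication within Fbn1, the gene of the microfibril protein fibrillin 1. It is carried in the germ line and so by every cell type of the skin. The labels call the mice female and the methods male, and the Y-linked gene Ddx3y was at 56.7 to 72.8 CPM in the 6 libraries.

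Skeletal muscle forms and repairs itself through a series of steps. Pax3 and Pax7 mark muscle progenitors, and Pax7 also marks the satellite cells that rest beside adult fibres. Myf5 and Myod1 commit such cells to muscle, Myog drives them to differentiate with help from the MEF2 factors, and the membrane proteins myomaker (Mymk) and myomixer (Mymx) let the differentiating cells fuse into fibres. Mouse dorsal skin carries a sheet of striated muscle, the panniculus carnosus, beneath the fat layer.

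Library totals lay between 17561453 and 19219814 counts. Fbn1 was at 262 to 289 CPM (counts per 1000000 counts of a library) in WT and 1538 to 2284 CPM in TSK. Summed over 19 markers of adult skeletal muscle, the share of all counts was 17.4% in WT 1, 25.3% in WT 2, 24.0% in WT 3 and 17.2%, 16.2% and 15.02% in TSK 1 to 3. WT 1 thus stood near TSK 1 on this measure, and no marker of the list was at 0 in any library. Fibroblast markers summed to 6422 to 9742 CPM in WT and 20600 to 47620 CPM in TSK. Residual ribosomal RNA from CT010467.1 took 6.09% to 7.82% of the counts in WT and 2.67% to 5.46% in TSK. In bulk tissue, fewer cells of a type cannot be told apart from less RNA in each cell.

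Promoter sequences were found in RefSeq (GRCm38.p6) for 5 of the 10 genes: Pax7, Myf5, Myog, Mef2c and Mustn1. Those of Myog and Mustn1 are shown because Myog was called lower in TSK in every alternative fit and Mustn1 in all but the fit relative to Ttn. Each runs 5′ to 3′ on the plus strand from 250 bases before the transcript start to 50 bases after it, and capitals mark matches to 2 motifs. The windows are chr1:134289754-134290053 for Myog and chr14:30879007-30879306 for Mustn1.
Myog: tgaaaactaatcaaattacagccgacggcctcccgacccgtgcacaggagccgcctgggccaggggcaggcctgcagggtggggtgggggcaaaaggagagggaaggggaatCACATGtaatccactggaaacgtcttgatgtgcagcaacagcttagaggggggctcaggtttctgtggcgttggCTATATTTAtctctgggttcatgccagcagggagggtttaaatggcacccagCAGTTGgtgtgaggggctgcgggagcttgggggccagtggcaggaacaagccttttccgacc
Mustn1: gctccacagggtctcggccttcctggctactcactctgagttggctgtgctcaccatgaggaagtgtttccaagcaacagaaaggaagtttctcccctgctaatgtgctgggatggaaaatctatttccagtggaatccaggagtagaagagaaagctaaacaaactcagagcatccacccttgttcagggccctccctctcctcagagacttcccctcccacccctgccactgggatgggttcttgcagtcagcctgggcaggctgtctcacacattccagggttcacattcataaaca

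The motifs searched, on both strands, were the E-box CANNTG, to which the basic helix-loop-helix factors bind, and CTANNNNTA. The last is a loose form of the core of MEF2 sites, since it allows any letter at the positions marked N. The letters of the last were chosen with the Myog window in view. The Myog window held 2 E-boxes, CACATG at 138 and CAGTTG at 12 bases before the start, with CTATATTTA at 64 bases before it. The Mustn1 window held neither motif. Among 32851 mouse promoter windows of the same length, 72.3% held an E-box and 21.0% the MEF2 letters. In the single Myf5 window a pair of overlapping MEF2 matches, on opposite strands, lay at 182 and 181 bases before the start. The Pax7 window held no match, and of 3 windows of Mef2c, E-boxes occurred in 2 and the MEF2 letters in 1. Among the MEF2 matches of these genes, that of Myog alone had only A and T at the positions marked N. These matches describe the letters only, since no binding was measured.

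Neither progenitor factor separated the groups. Pax7 (mm10, chr4:139737062-139833528, minus strand) was at 5.30, 6.55 and 5.11 CPM in WT 1 to 3 and at 5.89, 4.21 and 3.50 CPM in TSK 1 to 3. TSK 1 lay within the WT range, and the groups overlapped. Under TMM, which scales libraries so that a few abundant genes weigh less, its log2 fold change of TSK over WT was -0.60 (SE 0.27). Relative to Ttn it turned to 0.09 (SE 0.37), in a scaling that moved the median of all tested genes to 0.64.

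Pax3 (chr1:78101267-78197134, minus strand) was at 2.11, 0.980 and 1.27 CPM in WT and at 1.93, 2.78 and 2.71 CPM in TSK. It was the only one of the 9 tested genes with a log2 fold change above 0 under TMM, 0.52 (SE 0.29), and its groups overlapped through WT 1 and TSK 1. Pax3 also serves melanocytes and Schwann cell precursors. Melanocyte markers (7 genes, none at 0) summed to 25.9 to 38.7 CPM in WT and 39.6 to 47.9 CPM in TSK, and Schwann cell markers (7 genes, none at 0) to 169 to 310 and 313 to 551 CPM. WT 1 was the highest WT library for Pax3 and for both lists, and the part of these cells in the Pax3 level was not tested. Of 6185 stretches of 50 bases in its exons, 17 also occur in other genes. Its counts were fractional in all 6 libraries, as were those of Mef2c, which shares no such stretch with another gene.

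**Figure D1:**
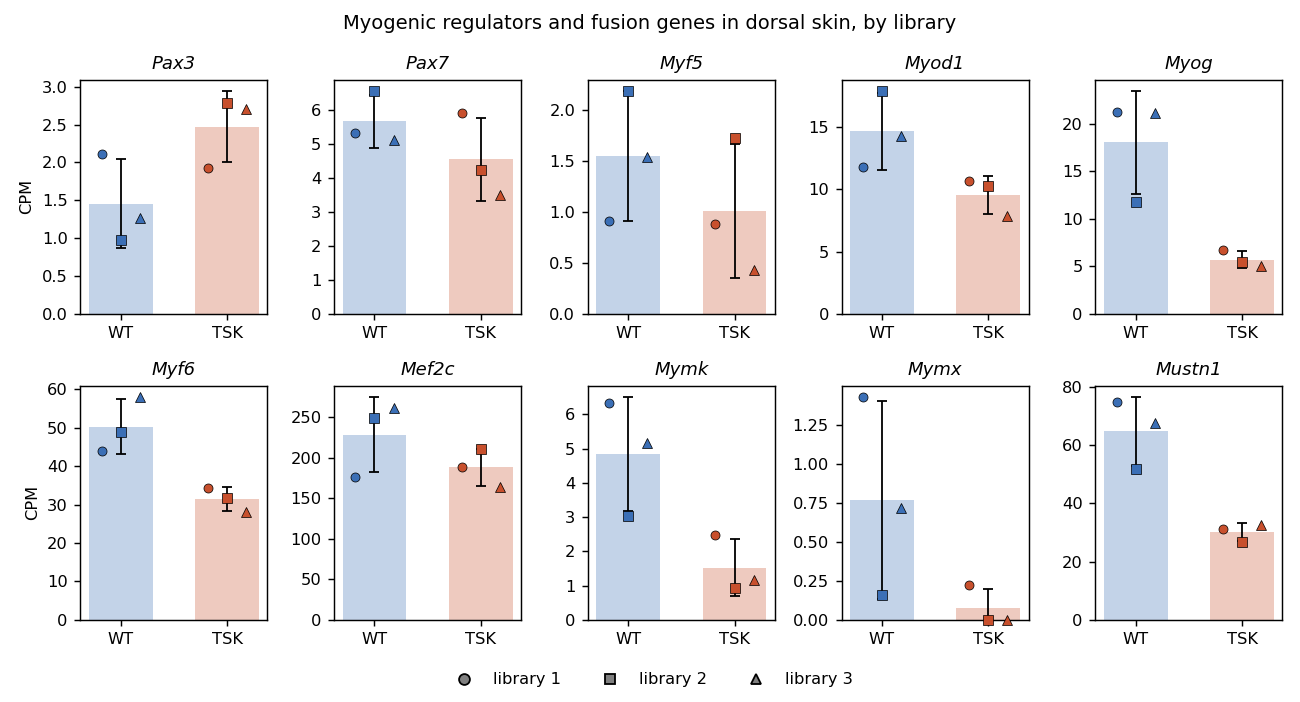
Deposited CPM of the 10 genes in each library, on linear axes that start at 0. Bars show the mean, whiskers the SD over 3 mice and points single libraries (circle, square and triangle for libraries 1, 2 and 3). Myod1, Myog, Myf6, Mymk and Mustn1 were lower in every TSK library than in any WT library, and the other 5 genes overlapped.

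Of the determination factors, Myod1 separated the groups and Myf5 did not. Myod1 (chr7:46376474-46379099, plus strand) was at 11.8, 17.9 and 14.3 CPM in WT and at 10.7, 10.3 and 7.85 CPM in TSK. All TSK libraries were below all WT libraries, though TSK 1 came close to WT 1. The log2 fold change was -0.91 (SE 0.24), which edgeR did not call at 0.05 after adjustment and DESeq2 did.

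Myf5 (chr10:107482908-107486134, minus strand) was at 0.911, 2.18 and 1.54 CPM in WT and at 0.880, 1.72 and 0.424 CPM in TSK. TSK 1 and TSK 3 lay below every WT library, and the groups overlapped through TSK 2. The log2 fold change of -0.92 had an SE of 0.54. Myf6 lies 6718 bases away on the same strand, and no exon of either gene overlaps another annotated gene. The groups overlapped for Myf5 and lay apart for Myf6.

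Myog, the differentiation factor, showed the clearest difference among the transcription factors. Myog (chr1:134289989-134292548, plus strand) was at 21.2, 11.8 and 21.1 CPM in WT and at 6.66, 5.41 and 4.98 CPM in TSK. WT 2 was well below the other WT libraries and still above every TSK library. The means were 18.0 ± 5.42 and 5.68 ± 0.869 CPM (SD, n = 3), a ratio of WT over TSK of 3.17, and the log2 fold change was -1.92 (SE 0.23). Leaving out any single library left it between -2.09 and -1.75.

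Myf6 (chr10:107492853-107494737, minus strand), which is also expressed in mature fibres, was at 44.0, 48.8 and 58.0 CPM in WT and at 34.4, 31.6 and 28.1 CPM in TSK. Every TSK library lay below every WT library. The log2 fold change was -0.97 (SE 0.18), and leaving out a library kept it between -1.10 and -0.82. The call at 0.05 was lost without WT 2, WT 3, TSK 2 or TSK 3. In these fits 0.295%, 0.0726%, 0.293% and 0.32% of all tested genes were lower, against 0.681% with all libraries.

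Mef2c (chr13:83504034-83667080, plus strand), a MADS box factor that works with the muscle basic helix-loop-helix factors, was at 176, 249 and 262 CPM in WT and at 189, 211 and 165 CPM in TSK. WT 1 lay among the TSK libraries. The log2 fold change was -0.58 (SE 0.23) under TMM and 0.16 (SE 0.23) relative to Ttn, where the median of all tested genes was 0.64. Mef2c is also expressed in endothelial cells and macrophages. Endothelial markers (10 genes, none at 0) summed to 163 to 191 CPM in WT and 287 to 479 CPM in TSK, and macrophage markers (9 genes, none at 0) to 238 to 375 and 443 to 1234 CPM. Their part in the Mef2c level was not tested.

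The fusion genes were low and lay mostly on the WT side. Mymk (chr2:27061636-27072179, minus strand) was at 6.32, 3.04 and 5.17 CPM in WT and at 2.48, 0.936 and 1.17 CPM in TSK. WT 2 was close to TSK 1, without overlap. The means were 4.84 ± 1.67 and 1.53 ± 0.830 CPM, and the log2 fold change of -1.91 (SE 0.39) ranged from -2.47 to -1.65 when single libraries were left out. Its call at 0.05 was lost without WT 1, WT 2, WT 3, TSK 2 or TSK 3. The shares of all tested genes that were lower in these fits were 2.66%, 0.295%, 0.0726%, 0.293% and 0.32%.

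Mymx (chr17:45600971-45602102, minus strand), a micropeptide gene, had 25, 3 and 13 counts in WT and 4, 0 and 0 counts in TSK. A count of 0 allows up to 0.156 CPM in TSK 2 and 0.159 CPM in TSK 3, taking 3 counts as the limit and counting error alone. Because WT 2 at 0.160 CPM was below TSK 1 at 0.220 CPM, the groups overlapped. Summed over libraries there were 41 counts in WT and 4 in TSK. The gene was too low to be tested under the filter. Without the filter edgeR and DESeq2 both called it lower in TSK, in fits that rest on these few counts.

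Mustn1 (chr14:30879200-30881610, plus strand), a small nuclear protein gene of the musculoskeletal system, was at 74.8, 51.8 and 67.7 CPM in WT and at 31.4, 26.7 and 32.6 CPM in TSK. The groups were well apart. The means were 64.8 ± 11.8 and 30.2 ± 3.12 CPM, and the log2 fold change of -1.37 (SE 0.14) had the smallest SE of the 9 tested genes. Mustn1 is also found in smooth muscle, whose markers (9 genes, none at 0) summed to 506 to 695 CPM in WT and 756 to 819 CPM in TSK. The most abundant of them was Synpo2, at 272, 478 and 428 CPM in WT 1 to 3, the order of Ttn in these libraries. The sum may thus not be specific to smooth muscle. Of the 9, 7 had a log2 fold change above 0 and 2 below 0. EdgeR called 2 higher and 0 lower, against 2.71% and 0.681% of all tested genes. The part of smooth muscle in the Mustn1 level was not tested.

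Counted together, 4 of the 9 tested genes (Myog, Myf6, Mymk and Mustn1) passed an adjusted p of 0.05 in edgeR with TSK lower, where 0.681% of all tested genes were, and 0 were higher, where 2.71% were. DESeq2, limma-voom and an unadjusted p of 0.05 in edgeR also gave 0 higher. When an adjusted p of 0.01 and a fold of 2.5 were both required, Myog and Mustn1 remained, against 0.0351% of tested genes. In 5 of the 10, the 4 genes and Myod1, the deposited CPM of the groups did not overlap with TSK lower, against 2.58% of tested genes. In none was TSK apart on the higher side, against 29.1%. The median log2 fold change was -0.92 over the 9 genes and -0.03 over all tested genes. Since the genes were chosen on this contrast, nothing is read from these shares. Scaling by library size alone moved the median of all tested genes to 0.25 and raised the share of calls that were higher in TSK from 79.9% to 94.8%, and the same 4 members were lower under it.

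Compared per 1000 bases of exon, the order of levels in WT ran from Mustn1 at 52.4 CPM per 1000 bases and Myf6 at 39.8, through Mef2c at 14.6, Myog at 12.1, Myod1 at 7.89 and Mymk at 3.20, to Pax7 at 0.965, Mymx at 0.746, Myf5 at 0.742 and Pax3 at 0.235. Among neighbours in this order, Myf6 and Mef2c, Myod1 and Mymk, Mymk and Pax7, and Myf5 and Pax3 had ranges over the WT libraries that did not meet. The other neighbours overlapped. In TSK, Myod1 at 5.15 stood before Myog at 3.80, and Myf6 at 24.9 before Mustn1 at 24.4, both the reverse of WT, with overlapping ranges in both groups. Mymx came last in TSK, at 0.0714. The exon length of Mef2c joins 31 transcripts, which lowers its value per 1000 bases.

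The rule also asked for each gene relative to Ttn, the gene of the giant sarcomere protein titin. Ttn was at 84580, 121300 and 116000 CPM in WT 1 to 3 and at 82870, 80210 and 74540 CPM in TSK 1 to 3. Every TSK library was below every WT library, with WT 1 close to TSK 1. The log2 fold change of -0.74 (SE 0.53) did not pass the test in edgeR (adjusted p = 0.486), while DESeq2, at -0.73, called Ttn lower in TSK. A gene that moves along with the amount of muscle in the sample would give a steady ratio.

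Myog gave 0.251, 0.0970 and 0.182 counts per 1000 Ttn counts in WT and 0.0803, 0.0675 and 0.0668 in TSK. It was the only one of the 10 genes whose groups did not overlap on this ratio, against 0.431% of tested genes on the lower side, and WT 2 was near TSK 1. Mymk gave 0.0747, 0.0250 and 0.0446 in WT and 0.0299, 0.0117 and 0.0156 in TSK, where TSK 1 exceeded WT 2. Mustn1 gave 0.884, 0.427 and 0.584 in WT and 0.378, 0.333 and 0.437 in TSK, where TSK 3 exceeded WT 2.

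Myod1, Myf6 and Pax7 overlapped between the groups on this ratio. Myod1 gave 0.139, 0.148 and 0.123 counts per 1000 Ttn counts in WT and 0.129, 0.128 and 0.105 in TSK. Myf6 gave 0.520, 0.402 and 0.5001 in WT and 0.415, 0.394 and 0.377 in TSK, with TSK 1 above WT 2. Pax7 averaged 0.0536 ± 0.00928 in WT and 0.0568 ± 0.0126 in TSK. Pax3 was on the other side, at 0.0147 ± 0.00906 and 0.0314 ± 0.00712, with an overlap through WT 1. Mymx, at 0.00810 ± 0.00794 in WT and 0.000885 ± 0.00153 in TSK, overlapped through WT 2 and TSK 1, and its few counts stand above.

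In a fit with the Ttn count as the library size, the log2 fold changes were -1.30 (SE 0.36) for Myog, -1.32 (SE 0.48) for Mymk, -0.72 (SE 0.30) for Mustn1, -0.26 (SE 0.27) for Myf6 and -0.18 (SE 0.31) for Myod1. Myog alone was below an adjusted p of 0.05 there, and 0.135% of all tested genes were lower by that fit. The scaling moved the median of all tested genes to 0.64. The median log2 ratio of the members to Ttn, TSK minus WT, was -0.22, with an SD of 0.29 between libraries of a group. It was -0.45 without TSK 2 and ranged from there to -0.16 over all single libraries left out. With Ckm, Acta1, Des or the sum of adult muscle markers in place of Ttn it was -0.18, -0.31, -0.09 and -0.20. Myog was lower without overlap on all 5 references. Myf6 and Mustn1 were also lower without overlap relative to Acta1. Mef2c was higher without overlap relative to Ckm, Des and the sum, and Pax3 relative to Des.

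**Figure D2:**
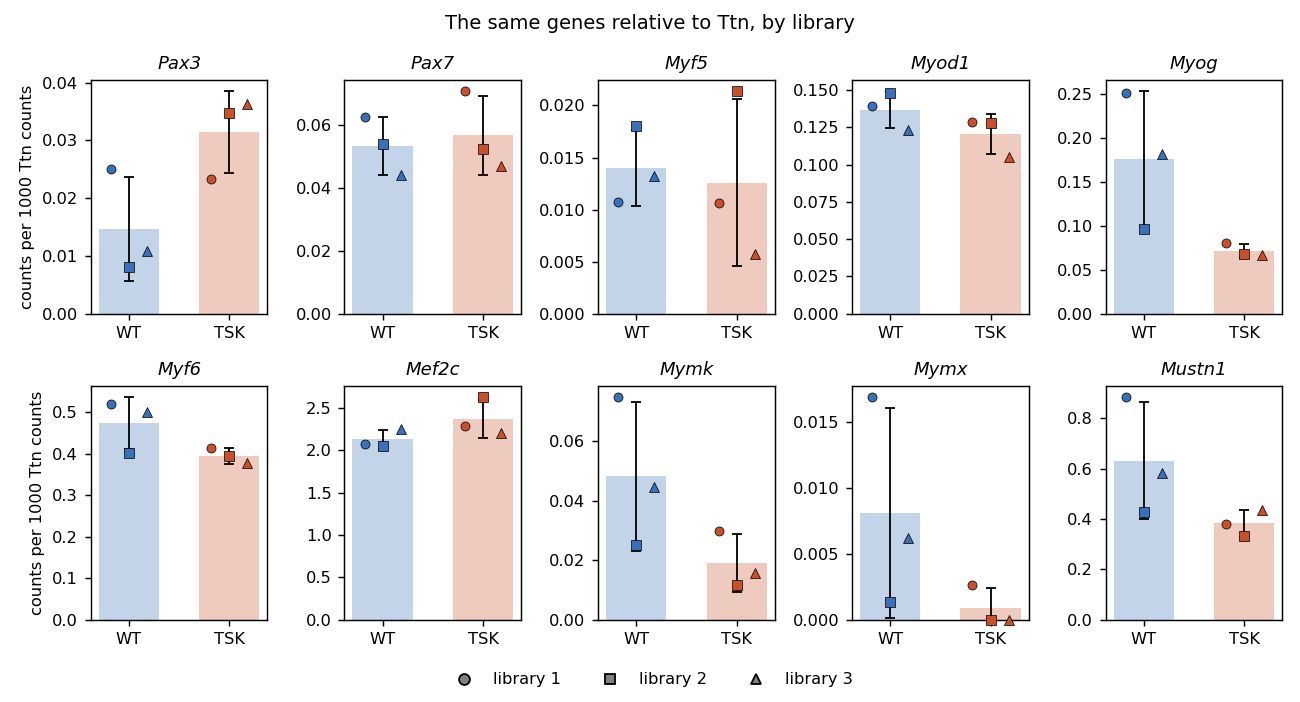
Counts of each gene per 1000 Ttn counts in each library, on linear axes that start at 0. Bars show the mean, whiskers the SD over 3 mice and points single libraries. Myog alone had no overlap between WT and TSK relative to Ttn.

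**Figure D3:**
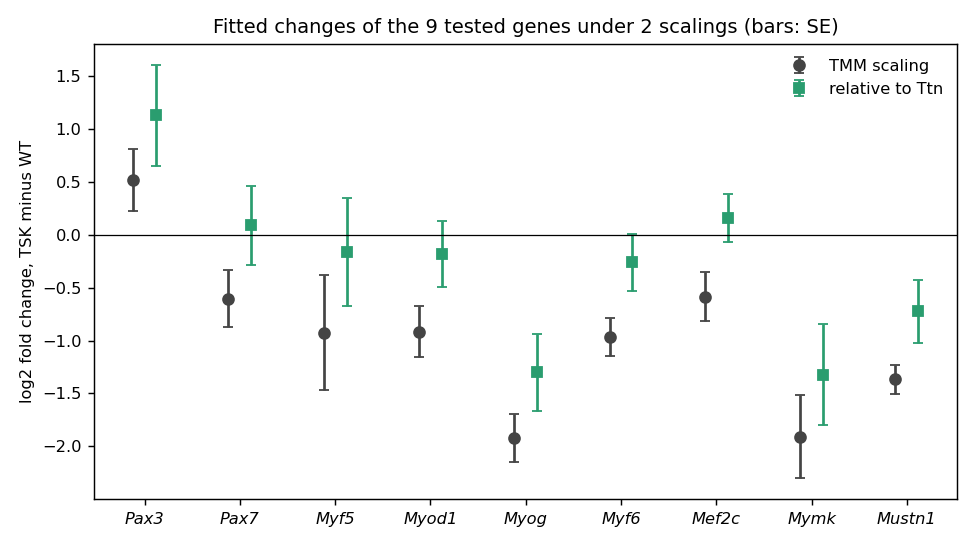
Fitted log2 fold change (TSK minus WT) of the 9 tested genes with TMM scaling (circles) and with the Ttn count as library size (squares), with SE as whiskers. Relative to Ttn, a scaling that moved the median of all tested genes to 0.64, Pax3 at 1.13, Pax7 at 0.09 and Mef2c at 0.16 lay above 0, and Myog at -1.30 and Mymk at -1.32 stayed lowest.

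Ratios between members need no outside scaling. Myog per Myod1 was 1.80, 0.656 and 1.47 in WT and 0.624, 0.528 and 0.635 in TSK. The TSK libraries lay close together, just below WT 2. Myog per Myf6 was 0.483, 0.241 and 0.363 in WT and 0.193, 0.171 and 0.177 in TSK, also without overlap. Myog per Pax7 averaged 3.31 ± 1.31 in WT and 1.28 ± 0.147 in TSK, without overlap.

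Mymk and Mustn1 were then set against Myog. Mymk per Myog was 0.298, 0.258 and 0.245 in WT and 0.372, 0.173 and 0.234 in TSK, so the pair overlapped between the groups. Mustn1 per Myog was 3.52, 4.40 and 3.22 in WT and 4.71, 4.93 and 6.54 in TSK, higher in every TSK library. Myf6 per Myod1 averaged 3.50 ± 0.698 and 3.30 ± 0.255, and Myod1 per Pax7 2.59 ± 0.314 and 2.16 ± 0.317, both with overlap.

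The WT libraries did not deviate alike for all members. On TMM-scaled log2 CPM, WT 2 deviated from the WT mean by -0.42 for Myog, -0.46 for Mymk, -0.16 for Mustn1 and -0.35 for Pax3, while it deviated by 0.36 for Pax7, 0.68 for Myf5 and 0.45 for Myod1. WT 2 was also 0.34 above the mean for Ttn and deviated by -0.80 for the embryonic myosin gene Myh3. WT 1 deviated the other way, by -0.50 for Ttn and -0.47 for Myod1 and by 0.11 for Myog and 0.27 for Mymk. In TSK, where Ttn deviated by no more than 0.12, TSK 1 was the highest library for Pax7, Myod1, Myog, Myf6 and Mymk alike. On deposited CPM, WT 2 was the lowest WT library for 5 of the 10 members and the highest for 3, while over all tested genes it was the lowest for 54.9% and the highest for 15.5%. These are deviations of single mice and were not tested.

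**Figure D4:**
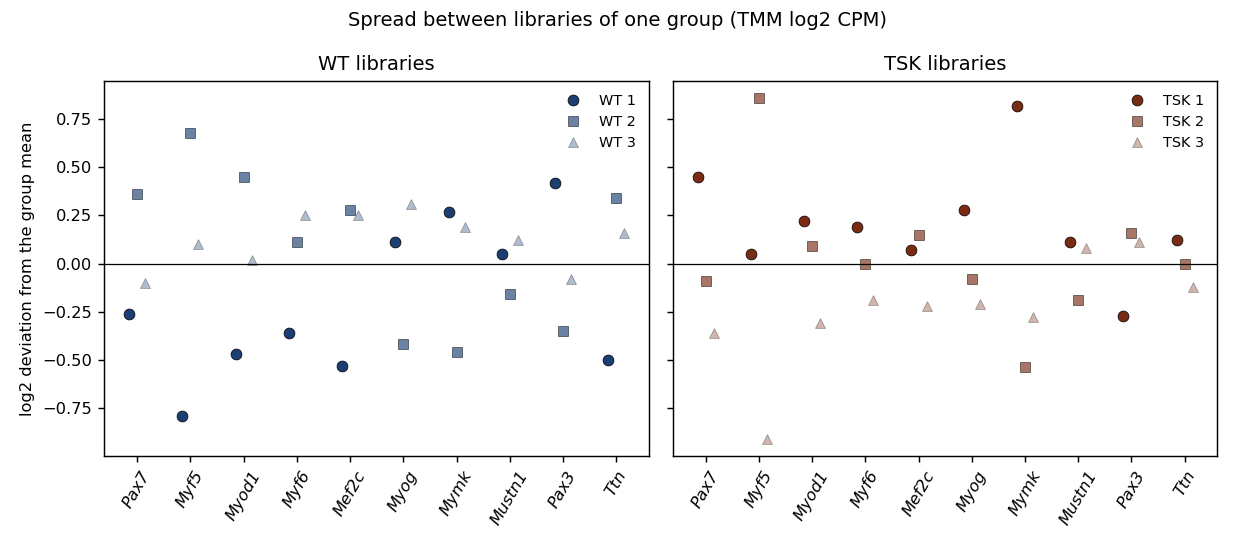
Deviation of each library from its group mean (TMM-scaled log2 CPM) for the 9 tested members and Ttn, with WT libraries on the left and TSK libraries on the right. Square points (WT 2) lie above 0 for Pax7, Myf5, Myod1 and Ttn and below 0 for Myog, Mymk, Mustn1 and Pax3.

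The genes whose pattern over the 6 libraries was most like that of Myog were found by the root mean square distance of centred TMM log2 CPM, among 17598 genes with a mean of at least 1 CPM and without the members. They were Gm45512 (distance 0.21), Tnnt2 (0.27), Spp1 (0.28), Chrnd (0.31) and Mstn (0.32), against a median distance of 0.99. Tnnt2 encodes the cardiac troponin T that immature skeletal muscle also makes, Chrnd a subunit of the acetylcholine receptor, Spp1 osteopontin, and Mstn myostatin. Tnnt2 was at 14.4, 6.66 and 10.5 CPM in WT and at 4.49, 3.18 and 4.58 CPM in TSK, with WT 2 the lowest WT library as for Myog. Among the members, Mymk at 0.30 and Mustn1 at 0.33 were the nearest to Myog, Myf6 followed at 0.55, and Pax3 was the farthest at 1.25.

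Other genes of the myogenic program were read from 5 lists. DESeq2 called 1.17% of the genes it tested lower and 3.24% higher, and limma-voom 0.556% and 2.17%. No share of all genes was taken at an unadjusted p of 0.05. Nothing is therefore read from counts at that threshold, in these lists or in the adult markers. The early muscle differentiation genes, among them embryonic and neonatal contractile genes, acetylcholine receptor subunits and cell cycle inhibitors, gave the highest count. Of 15 tested, 12 were lower and 0 higher in TSK at the edgeR threshold of 0.05, against 0.681% and 2.71% of all tested genes. All 15 had a log2 fold change below 0, and the median was -1.61. The list overlaps with developing muscle genes already known to be low in these libraries and is not independent evidence.

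Embryonic myosin heavy chain Myh3 was at 45.2, 15.7 and 39.0 CPM in WT and at 3.23, 5.33 and 3.40 CPM in TSK. The groups were well apart, by -3.30 on the log2 scale (SE 0.35, edgeR adjusted p = 0.00623). The neonatal myosin gene Myh8 was at 67.3, 63.0 and 160 CPM in WT and at 13.99, 7.08 and 14.7 CPM in TSK (log2 fold change -3.31, SE 0.44, edgeR adjusted p = 0.0114). Ankrd1, a stress-responsive muscle ankyrin repeat gene, fell from 15.1 ± 8.52 to 1.15 ± 0.382 CPM (-3.96, SE 0.51, edgeR adjusted p = 0.0104). Myl4, the embryonic and atrial myosin light chain, fell from 11.8 ± 4.87 to 2.25 ± 0.393 CPM (-2.64, SE 0.32, edgeR adjusted p = 0.00888).

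For Myh3, Ankrd1 and Myl4, as for Myog, WT 2 was the lowest WT library by a wide margin. The other 8 called genes of the list ranged from -3.78 to -0.79. The 3 without a call were the cell cycle inhibitors Cdkn1a (log2 fold change -0.01, SE 0.18) and Cdkn1c (-0.14, SE 0.16), which many cell types express, and Dok7 (-0.58, SE 0.31), an adaptor at the nerve-muscle junction. In the fit relative to Ttn 7 of the 15 were called lower, and without WT 3 there were 4. Of all tested genes, 0.135% and 0.0726% were lower in these 2 fits. Relative to Ttn the log2 fold changes were -2.72 for Myh3, -2.57 for Myh8, -3.37 for Ankrd1 and -2.02 for Myl4.

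Adult skeletal muscle markers depended on the tool. In edgeR 0 of 19 passed the test in either direction, where 0.681% of all tested genes were lower and 2.71% higher. At an unadjusted p of 0.05 in edgeR, 12 were lower and 1 higher. With limma-voom 0 passed, and DESeq2 called 15 lower and 1 higher, where it called 1.17% and 3.24% of all genes it tested. In 9 of the 19 the deposited CPM did not overlap with TSK lower, and in 1 with TSK higher, against 2.58% and 29.1% of all tested genes. Their median log2 fold change was -0.80, with 16 below 0 and 3 above it. The lowest edgeR adjusted p, 0.0670, was that of Myh2, which was higher in TSK (log2 fold change 1.26, SE 0.31). Among those below 0 the lowest was 0.0736, for Des. The summed level of the early list was 623 to 938 CPM in WT and 248 to 389 CPM in TSK. That of the adult markers was 174200 to 253400 CPM in WT and 150200 to 172200 CPM in TSK, so WT 1 and TSK 1 almost met. The difference between the lists was not tested. On the early list DESeq2 called 12 lower and limma-voom 10, and neither called any higher, nor did edgeR at an unadjusted p of 0.05.

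**Figure D5:**
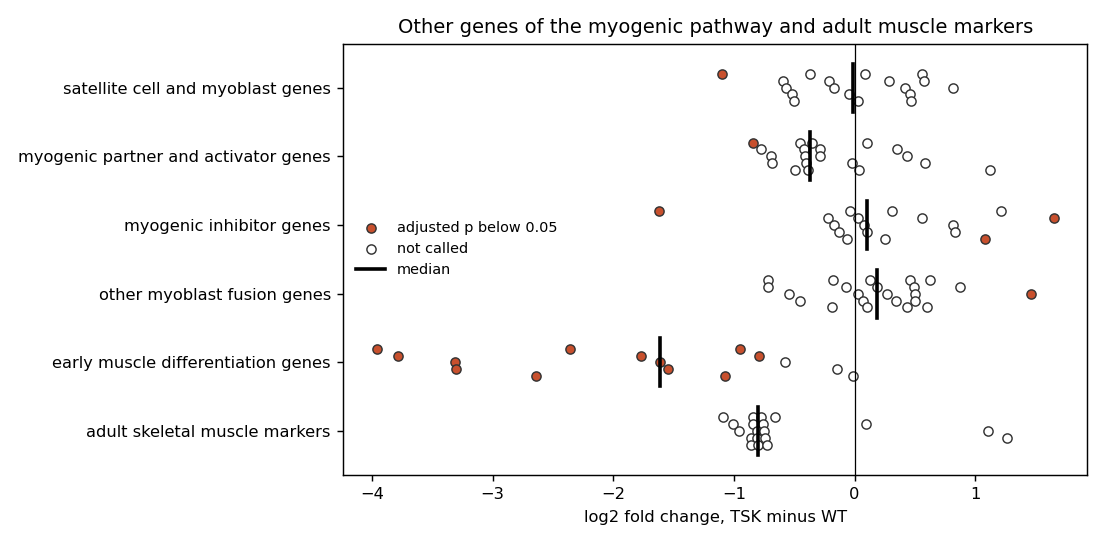
Log2 fold change (TSK minus WT, TMM scaling) of each tested gene in 5 lists of the myogenic program and in the adult skeletal muscle markers. Filled points passed an adjusted p below 0.05 in edgeR, open points did not, and the black bar is the list's median. The early muscle differentiation genes have 12 filled points to the left of 0 and a median of -1.61. The adult markers have a median of -0.80, with 16 points below 0, 3 above it and none filled, although DESeq2 called 15 of them lower and 1 higher.

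Satellite cell and myoblast genes were mixed. Of 18 tested, edgeR called 1 lower and 0 higher, against 0.681% and 2.71% of all tested genes, and the median was -0.01. At an unadjusted p of 0.05 edgeR gave 4 lower and 4 higher, DESeq2 called 2 lower and 1 higher, and limma-voom 1 lower and 0 higher. The lower gene was Cdh15, the M-cadherin of satellite cells and myoblasts, at 20.5, 14.3 and 19.0 CPM in WT and 12.1, 9.52 and 8.53 CPM in TSK (log2 fold change -1.10, SE 0.18, edgeR adjusted p = 0.0191). Its groups did not overlap. Its call was lost without WT 3 or TSK 2, where 0.0726% and 0.293% of all tested genes were lower. The most abundant genes without a call in edgeR under TMM were Fgfr1 (0.58, SE 0.20), Sdc4 (0.09, SE 0.14) and Notch3 (0.56, SE 0.12). These are receptors and a proteoglycan that fibroblasts, endothelium and mural cells also make. Notch3 was just short of the threshold (edgeR adjusted p = 0.0511), its groups did not overlap, and DESeq2 called it higher. With library size only and relative to Ttn, Fgfr1 and Notch3 were both called higher.

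Partners and activators of the myogenic factors had a median of -0.37 over 20 tested genes. In edgeR 1 was lower and 0 were higher, against 0.681% and 2.71% of all tested genes. At an unadjusted p of 0.05, 10 were lower and 1 higher, DESeq2 called 2 lower and 1 higher, and limma-voom 1 lower and 0 higher. Eya4, a transcriptional coactivator, was at 38.5, 41.0 and 49.5 CPM in WT and at 27.5, 28.8 and 31.6 CPM in TSK (log2 fold change -0.84, SE 0.16, edgeR adjusted p = 0.0288). All TSK libraries were below WT, yet of the 6 fits with a library left out only that without WT 1 kept the call. That fit called 2.66% of all tested genes lower, and the other fits with a library left out 0.0726% to 0.448%. Relative to Ttn the call was lost at -0.13. Smyd1, a muscle histone methyltransferase, and the MEF2 genes Mef2d and Mef2a had no call, at -0.68 (SE 0.24), -0.35 (SE 0.14) and -0.42 (SE 0.14). These 3 were above 0 relative to Ttn, at 0.07, 0.33 and 0.23, where the median of all tested genes was 0.64.

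Of 17 tested inhibitors of the program, 1 was lower and 2 were higher in edgeR, against 0.681% and 2.71% of all tested genes. The median was 0.10. At an unadjusted p of 0.05 edgeR gave 1 lower and 5 higher, DESeq2 called 1 lower and 5 higher, and limma-voom 1 lower and 2 higher. The deposited CPM of the groups did not overlap in 8 with TSK higher and in 1 with TSK lower, again against 29.1% and 2.58% of all tested genes. Mstn, which encodes the muscle growth inhibitor myostatin and is made by muscle itself, was at 309, 296 and 315 CPM in WT and at 162, 92.5 and 108 CPM in TSK (log2 fold change -1.62, SE 0.24, edgeR adjusted p = 0.0148). Id3, which binds E proteins and keeps them from Myod1, rose from 12.8 ± 0.960 to 32.9 ± 4.91 CPM (1.08, SE 0.16, edgeR adjusted p = 0.0148). Twist1, a basic helix-loop-helix factor of mesenchymal cells, rose from 2.45 ± 0.653 to 9.29 ± 3.44 CPM (1.65, SE 0.29, edgeR adjusted p = 0.0231).

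Each of these 3 genes lost its call without WT 3, where 0.0726% of all tested genes were lower and 0.218% higher. Twist1 also lost it without WT 2, where 1.09% were higher. Twist1 and Id3 are not specific to muscle. The summed levels of fibroblast and endothelial markers are given above. EdgeR called 2 of 10 higher in each of these lists, against 2.71% of all tested genes. DESeq2 called 7 fibroblast and 3 endothelial markers higher, against 3.24%. In all 10 of each list the deposited CPM did not overlap with TSK higher, against 29.1%. The part of these cells in the rises of Twist1 and Id3 was not tested. Hdac4, Hdac5 and Zeb1, the most abundant inhibitors without a call in edgeR, were at -0.17 (SE 0.13), 0.08 (SE 0.14) and -0.04 (SE 0.12). Hdac4 and Zeb1 were above 0 relative to Ttn and with library size only, where the medians of all tested genes were 0.64 and 0.25.

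Fusion genes other than Mymk and Mymx had 0 of 23 tested genes lower and 1 higher in edgeR, against 0.681% and 2.71% of all tested genes. The median was 0.18. At an unadjusted p of 0.05 edgeR gave 3 lower and 7 higher, DESeq2 called 2 lower and 3 higher, and limma-voom 0 in either direction. The deposited CPM of the groups did not overlap in 13 genes with TSK higher and in 2 with TSK lower, against 29.1% and 2.58% of all tested genes. The higher gene was Cdh2, the N-cadherin of neurons, mesenchyme and myoblasts, at 3.20, 1.19 and 1.77 CPM in WT and 4.89, 8.58 and 6.59 CPM in TSK (log2 fold change 1.46, SE 0.32, edgeR adjusted p = 0.0461). Its call was lost when any library but WT 1 was left out. In those fits 0.218% to 2.11% of all tested genes were higher, against 2.71% with all libraries. Itgb1 (-0.07, SE 0.14), Ehd2 (0.46, SE 0.17) and Tanc1 (0.10, SE 0.14), the most abundant of the list, had no call in edgeR under TMM. Itgb1 was above 0 relative to Ttn and with library size only, where the medians of all tested genes were 0.64 and 0.25. Itgb1, Ehd2 and Tanc1 are expressed in many cell types.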

How the data were processed

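Bulk RNA of dorsal skin from 3 WT and 3 TSK mice was measured, grouped by the genotype in the labels. The authors made stranded, ribosome-depleted total RNA libraries, sequenced single-end reads of 50 bases, aligned them with STAR to mm10 and quantified genes in Partek Flow (version 11.0 in the submitters' processing notes). The deposited table named as raw holds estimated counts, of which 43.3% to 45.4% of non-zero values were whole within 0.001. Tests planned for raw counts were therefore run on rounded values. The deposited CPM table scales them to 1000000 per library. It was used for levels and ratios, because the count table gives Ttn to 3 digits only.

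All genes kept by filterByExpr were fitted with edgeR 4.0.16 in R 4.3.3 (TMM, quasi-likelihood, Benjamini-Hochberg adjusted p), checked on simulated counts. DESeq2 1.42.0, limma 3.58.1, other scalings, no filter, a replicate block and left-out libraries were alternatives. The members, gene lists and tests were chosen with earlier results of these data known. Named genes were the members, Ttn, Fbn1, each list's called genes (if over 8, the 4 of lowest p in each direction) and its 3 most abundant others, and the 5 genes nearest to Myog. Of the 27 fusion list genes, 1 was not matched and 3 were too low to test, as was 1 of 21 partner genes. Coordinates are 1-based from GENCODE M21. The deposited table gave the same starts for all 10 members and ends 1 base higher. No member overlaps another annotated gene. Library totals limit precision to counting error at 3 counts, between 0.156 and 0.171 CPM. Libraries of a group differed beyond sampling noise (chi-square per degree of freedom at least 8.02). P-values in edgeR rest on the spread between the 3 mice of each group, estimated jointly for both groups and drawn toward that of other genes. SEs in edgeR were derived from the log2 fold change and its F statistic.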

Additional observations from a re-analysis of the deposited data

How the results depend on the processing

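Over 15 alternatives, the fitted values of the 9 tested members kept direction and side of the threshold in 117 of 135 cases, 12 lost the call, 4 gained one and 2 changed direction. Over all 40 named genes 496 of 599 were kept. Members lower in TSK numbered 4 under TMM, 6 with DESeq2 and 6 with no low-count filter, 1 relative to Ttn, 2 when an adjusted p of 0.01 and a fold of 2.5 were required, and 2 to 5 with single libraries left out. In the same order, the shares of all tested genes that were lower were 0.681%, 1.17%, 0.997%, 0.135%, 0.0351% and 0.0726% to 2.66%. Relative to Ttn, lower genes numbered 0 of the satellite cell list, 0 of the partner list and 7 of the early list, and higher genes 5 of the satellite cell, 3 of the partner, 6 of the inhibitor and 12 of the fusion list, where 15.4% of all tested genes were higher. With library size only and with limma-trend at a pseudocount of 1 or 0.1, higher genes numbered 4, 1, 5 and 6 in those lists, where 8.44% of all tested genes were higher with library size only. DESeq2 gave 2 lower and 1 higher satellite cell genes, 2 and 1 partner genes, 5 higher inhibitors, and 2 lower and 3 higher fusion genes. No low-count filter gave 2 lower and 1 higher satellite cell genes, 2 lower partner genes, 5 higher inhibitors and 2 lower fusion genes. DESeq2 size factors in edgeR gave 4 higher inhibitors. limma-voom gave 0 higher fusion genes. At the stricter thresholds the satellite cell, partner and inhibitor lists had 0 lower genes, the inhibitor and fusion lists 0 higher genes and the early list 2 lower genes. The cause was not tested.

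The deviations of same-numbered libraries had correlations of 0.0112, 0.167 and -0.0938. With 3 libraries in each group these values cannot show whether mice were paired by litter, so pairing stayed unknown. With a replicate block 4 inhibitors and 0 fusion genes were higher and 4 members lower. With single libraries left out, lower genes ranged from 0 to 1 in the satellite cell list, 0 to 6 in the partner list, 0 to 1 in the inhibitor list, 0 to 2 in the fusion list and 4 to 13 in the early list, and higher genes from 0 to 3 in the inhibitor list and 0 to 2 in the fusion list. Over the same fits, 0.0726% to 2.66% of all tested genes were lower and 0.218% to 3.47% higher.

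The median of all tested genes was 0.64 relative to Ttn and 0.25 with library size only. Genes without a call in edgeR under TMM that changed direction relative to Ttn had log2 fold changes, all below 0.64, of 0.0884 (Pax7), 0.16 (Mef2c), 0.0687 (Smyd1), 0.33 (Mef2d), 0.23 (Mef2a), 0.22 (Dok7), 0.49 (Hdac4), 0.63 (Zeb1), 0.60 (Itgb1), 0.62 (Cdkn1a) and 0.52 (Cdkn1c). With library size only they were 0.11 (Hdac4), 0.24 (Zeb1), 0.21 (Itgb1), 0.25 (Cdkn1a) and 0.13 (Cdkn1c). With limma-trend at pseudocounts of 1 and 0.1 they were 0.10 and 0.10 (Hdac4), 0.24 and 0.24 (Zeb1), 0.20 and 0.20 (Itgb1), 0.28 and 0.28 (Cdkn1a) and 0.12 and 0.12 (Cdkn1c). Cdkn1a was 0.0063 with limma-voom and 0.0041 with the replicate block. With single libraries left out, log2 fold changes ranged from -0.0872 to 0.0398 (Zeb1), from -0.158 to 0.138 (Cdkn1a) and from -0.233 to 0.0025 (Cdkn1c).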
